A study of Mus musculus with 4 samples.

Results

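The genes of the DNA replication machinery are those whose products load the replicative helicase at origins, start it, copy both strands and join the new fragments. A set of 41 such genes, named as a list with no measured value in its rule, was followed among 21631 protein-coding genes, and all 41 were in the RefSeq gene table. Peaks of acetylated histone H3 lysine 27 (H3K27ac), found at active promoters and enhancers, were assigned to a gene when they overlapped its mm10 body extended by 2 kb on both sides.

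Before S phase, the origin recognition complex, Cdc6 and Cdt1 load the MCM helicase onto origin DNA, and geminin restrains that loading. Cdc45 and the GINS complex then turn the helicase on, polymerase alpha-primase lays down primers, and polymerases epsilon and delta extend them with the PCNA clamp. Many of these genes are known targets of E2F factors, which tie their transcription to entry into S phase, and dividing neural stem cells use the whole set.

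The cells were female mouse neural stem cell lines established from Smchd1 del/fl E14.5 embryos. Smchd1 is a noncanonical SMC-family gene whose product acts in X inactivation. Deleted cells (Smchd1 del/del) had received the MSCV-Cre-puro retrovirus, with puromycin from 24 h, and were collected 7 days after transduction. Control cells were the untransduced portion of such a line. All cells shared a maternal X of 129 origin with an Xist deltaA allele and a paternal Castaneus X, with C57BL/6 in the strain field. Each group was 1 culture with 1 ChIP and 1 whole-cell-extract input library, both numbered 1 in the titles. Since controls were not transduced, Cre deletion, transduction and selection cannot be told apart, and loss of Smchd1 itself was not checked in these peak lists. Titles set the groups, and they give the control ChIP as Smchd1 fl/fl and its input as fl/fll. The genotype fields instead give the control ChIP 1 deleted allele and the control input 2, and the antibody field of both ChIPs names H3K27me3. Of 12 neural stem cell marker genes all 12 had a peak in both lists, against 1 of 6 neuron, 2 of 5 fibroblast, 2 of 5 microglia and 2 of 4 endothelial markers. The share over all protein-coding genes was 59.0%.

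The deleted list held 91557 peaks on the autosomes and X and the control list 63613. Filtered ChIP depth was 54194233 and 42277672 tags, a ratio of 1.28, against a ratio of 1.44 between the list lengths. Whether the list lengths follow that depth was not tested. Fold enrichment, the height of a peak's summit over its local background, is the authors' value from the peak caller for 1 library over the matching input, with no scaling across lists. With 1 library per group there was no replicate check and no test between deleted and control cells.

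Promoter sequences are shown first for 4 members, because every member had a peak within 1 kb of a start in both lists. The windows are not the peaks themselves. No peak overlapped the Mcm3 window, and at Mcm5 the peaks of both lists covered only the first part of it. RefSeq promoter entries on GRCm38.p6 matched 33 of the 41 members. Of these, 22 had a single listed start within 50 bases of the gene's outer end, and from them the 3 with the highest control fold enrichment (Rfc4, Mcm5 and Orc6) and the lowest (Mcm3) were taken. Each run is the 250 bases before the start, read 5′ to 3′ on the gene's strand, at chr16:23127731-23127980 (minus strand), chr8:75109259-75109508 (plus), chr8:85299382-85299631 (plus) and chr1:20820313-20820562 (minus). Capitals mark matches to the E2F motifs TTTCCCGC, TTTGGCGC, TTTCGCGC or TTTGCCGC and to the CCAAT box, on either strand.
Rfc4: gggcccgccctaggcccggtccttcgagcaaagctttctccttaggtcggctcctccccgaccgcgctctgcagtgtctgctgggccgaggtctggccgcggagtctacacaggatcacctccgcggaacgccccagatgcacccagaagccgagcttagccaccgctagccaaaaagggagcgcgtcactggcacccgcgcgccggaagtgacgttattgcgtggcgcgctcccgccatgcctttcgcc
Mcm5: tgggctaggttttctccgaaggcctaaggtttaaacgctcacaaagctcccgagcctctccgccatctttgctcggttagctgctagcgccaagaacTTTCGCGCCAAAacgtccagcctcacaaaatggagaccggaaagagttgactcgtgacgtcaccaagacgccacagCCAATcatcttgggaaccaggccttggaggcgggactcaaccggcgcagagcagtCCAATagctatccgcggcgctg
Orc6: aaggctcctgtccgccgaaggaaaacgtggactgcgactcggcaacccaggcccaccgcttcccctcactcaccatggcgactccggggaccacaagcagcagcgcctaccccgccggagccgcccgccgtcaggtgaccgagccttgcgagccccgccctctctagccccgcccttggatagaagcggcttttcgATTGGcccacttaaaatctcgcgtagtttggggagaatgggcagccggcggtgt
Mcm3: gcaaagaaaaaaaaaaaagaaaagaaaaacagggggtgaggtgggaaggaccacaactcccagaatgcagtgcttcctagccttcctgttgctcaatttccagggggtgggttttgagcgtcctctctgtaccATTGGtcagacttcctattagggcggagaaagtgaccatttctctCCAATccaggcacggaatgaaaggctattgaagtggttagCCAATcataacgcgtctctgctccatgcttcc
The Rfc4 window held no match to either motif, although Rfc4 had the highest fold enrichment of all 41 genes in the deleted list. Mcm5 held 2 E2F matches that overlap each other and 2 CCAAT boxes, Orc6 held 1 CCAAT box, and Mcm3 held 3 CCAAT boxes with its E2F matches lying past the start. The 4 windows differed in base composition, with 67.2% G and C in Rfc4, 56.8% in Mcm5, 65.6% in Orc6 and 48.0% in Mcm3. CpG dinucleotides numbered 27, 19, 24 and 5 in the same order. Such matches are descriptions of letters, not of bound factors.

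Further E2F matches are shown for 6 genes that load or form the helicase, as examples of the motif in these promoters. Each 30-base run carries its match in capitals, on the gene's strand, at chr1:20820275-20820304 (Mcm3, minus), chr1:128359734-128359763 (Mcm6, minus), chr5:138172030-138172059 (Mcm7, minus), chr4:108579416-108579445 (Orc1, plus), chr8:122568035-122568064 (Cdt1, plus) and chr11:98908002-98908031 (Cdc6, plus).
Mcm3: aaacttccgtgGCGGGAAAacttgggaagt
Mcm6: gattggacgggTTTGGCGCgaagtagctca
Mcm7: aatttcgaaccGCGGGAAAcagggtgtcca
Orc1: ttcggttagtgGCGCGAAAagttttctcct
Cdt1: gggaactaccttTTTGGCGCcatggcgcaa
Cdc6: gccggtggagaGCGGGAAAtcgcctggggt
The matches in Mcm6, Mcm7, Orc1 and Cdc6 began 47, 165, 27 and 138 bases before a RefSeq start, and those in Mcm3 and Cdt1 began 19 and 32 bases after one.

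Every one of the 41 genes carried H3K27ac in both cultures. All 41 had at least 1 peak in both lists, against 59.0% of all protein-coding genes, and none was in 1 list only, a class that held 6.00% (deleted list only) and 0.989% (control list only) of protein-coding genes. None of the 41 was without a peak, against 34.0%. All 41 also had a peak within 1 kb of a start in both lists, against 50.4% of protein-coding genes, while 5.50% had such a peak in deleted cells alone, 0.892% in control cells alone and 43.2% in neither. For 33 members the strand was known, and for the other 8 (Gins1, Gins2, Gins4, Gmnn, Mcm4, Pole, Prim2 and Rfc2) either gene end was accepted, so a peak at the 3′ end could count. The lists did not differ in which of these genes had a peak. They differed in peak number, by a ratio of 1.41, close to the 1.40 of all protein-coding genes. Peak heights are not scaled between the lists.

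The heights were moderate. The highest fold enrichment per member had a median of 6.67 in the deleted list (range 3.53 to 12.9) and 6.66 in the control list (3.00 to 12.5). Over all protein-coding genes with a peak in the list the medians were 7.22 and 7.00, and 17 of the 41 members exceeded the list median in each list. A total of 14 members were above the 50th percentile in both lists and 21 below it in both.

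**Figure D1:**
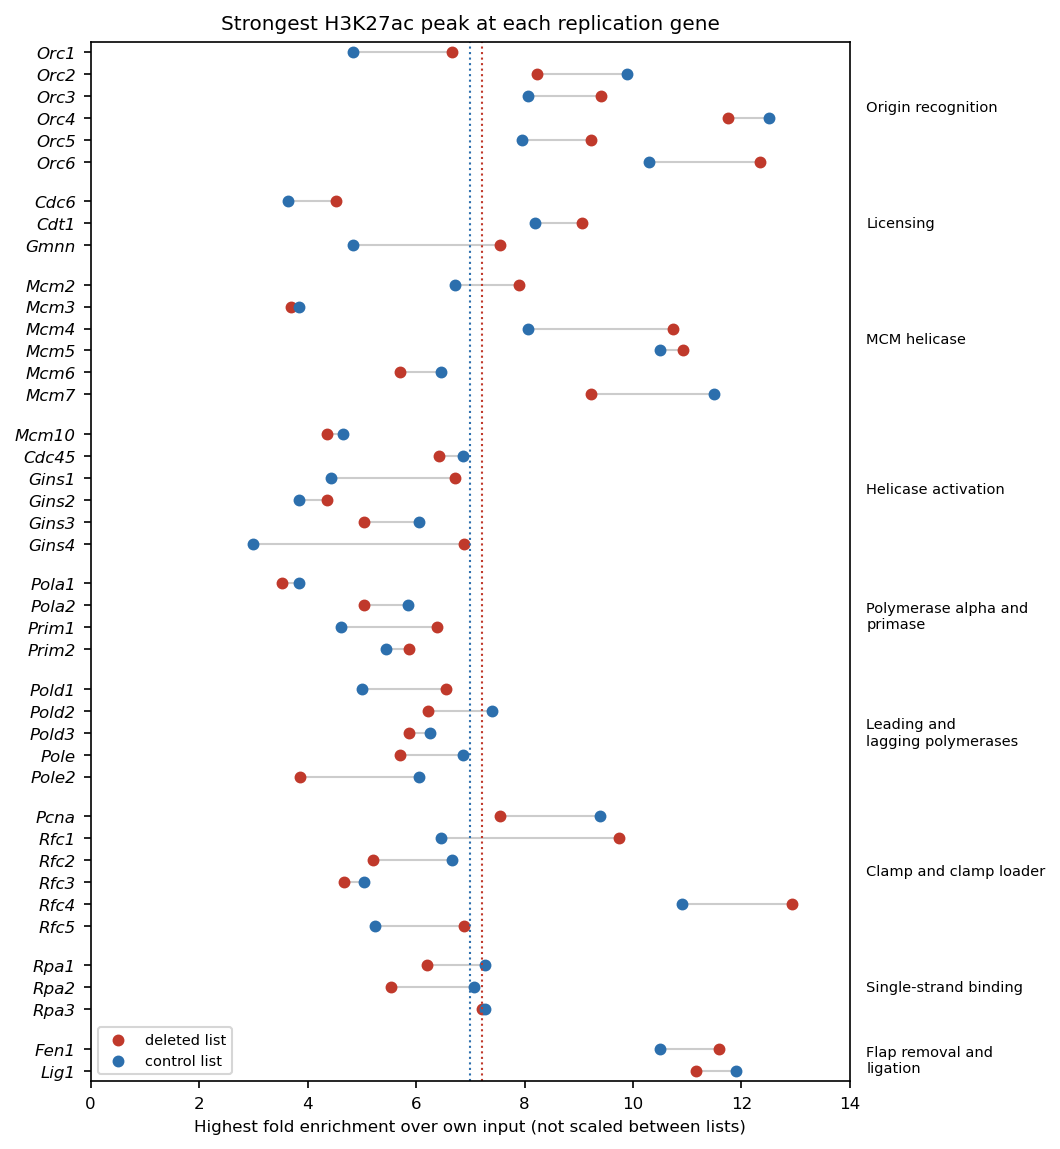
Highest fold enrichment over its own input (horizontal axis, no unit, not scaled between lists) of each of the 41 replication genes, in order of role, with 1 point for the deleted and 1 for the control list and dotted lines at the medians of all protein-coding genes with a peak (7.22 and 7.00). Orc4, Orc6, Mcm5, Rfc4, Fen1 and Lig1 were above 10 in both lists, whereas the helicase activation and polymerase alpha-primase genes all lay below 7.

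The share of members with tall peaks lay near or below that of other acetylated genes. With a fold enrichment of at least 5 in both lists 28 members remained (68.3%), against 43.8% of all protein-coding genes and 74.2% of those with a peak in both lists. At a minimum of 6 there were 19 (46.3%), against 35.5% and 60.1%. At a minimum of 8 there were 11 members (26.8%), against 19% of all and 32.1% of genes with a peak in both lists. At 10 the count was 6 (14.6%), against 7.81% and 13.2%, and at 12 it was 0, against 2.70% and 4.59%. So the members exceeded protein-coding genes as a whole at minimums of 5, 6, 8 and 10, and at 5, 6 and 8 were fewer in share than genes that carried the mark in both cultures. At a minimum of 5, 6 genes passed in the deleted list alone (Orc1, Gmnn, Gins1, Gins4, Prim1 and Pold1), which was 14.6%, against 4.88% of all protein-coding genes and 7.67% of those with a peak in both lists. Pold1 is among them only by rounding, since its control value was 4.99999. Pole2 and Rfc3 passed in the control list alone (4.88%, against 2.30% and 3.88%). Cdc6, Mcm3, Mcm10, Gins2 and Pola1 passed in neither (12.2%, against 49.0% and 14.2%). At a minimum of 6, 7 members passed in the deleted list alone and 7 in the control list alone (17.1% each). Among genes with a peak in both lists these shares were 10.1% and 4.65%. The member counts, deleted list first, were 2 and 1 at a minimum of 8, 1 and 1 at 10, and 2 and 1 at 12. The larger deleted-list count at 5 was thus not seen at 6 or 10.

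**Figure D2:**
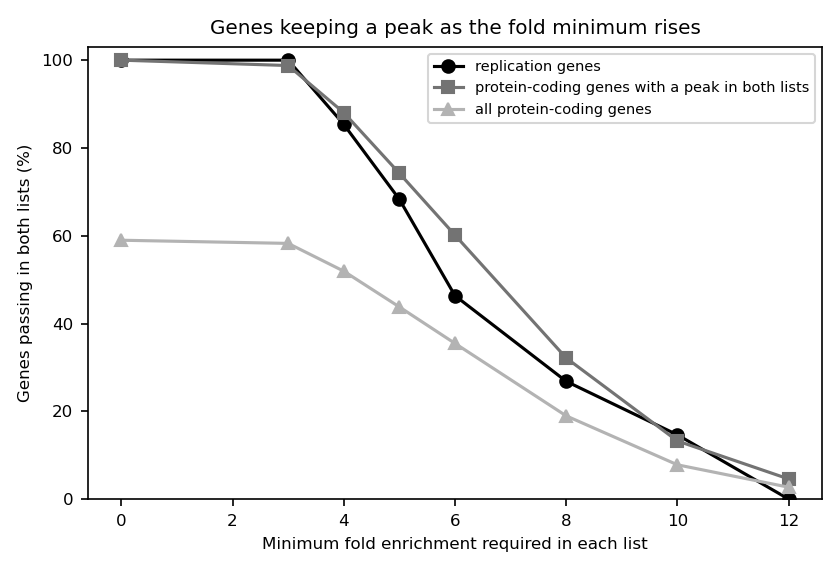
Share of genes (%) with a peak of at least the given fold enrichment in both lists, for the 41 replication genes, all protein-coding genes and protein-coding genes with a peak in both lists. At a minimum of 5 the replication genes stood at 68.3%, between 43.8% and 74.2%.

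The origin recognition complex, the 6-subunit ATPase that marks origins, had the highest median among the loading factors. Its median highest fold enrichment was 9.32 (deleted) and 8.98 (control), and 5 of 6 subunits exceeded the list median in each. Orc4 (chr2:48902824-48952902) reached 11.8 (deleted) and 12.5 (control), from summit pileups of 69 and 61 tags. Orc6, the smallest and least conserved subunit, reached 12.3 and 10.3, and its deleted peak was 1796 bases wide, the widest strongest peak of the set in that list. Orc2 had a single peak in each list, at 8.23 and 9.89.
Values of the other 3 subunits follow. Orc3 reached 9.40 and 8.07, with its strongest peak on different sides of the start in the 2 lists (178 bases downstream in the deleted and 231 bases upstream in the control list). Orc5 reached 9.23 and 7.96. Orc1, the subunit whose level is known to vary through the cell cycle, was the lowest of the 6 at 6.67 and 4.83, and its strongest deleted peak, 403 bases upstream of a start, was a different one from its strongest control peak, 332 bases downstream.

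Licensing genes divided. Cdt1, which brings MCM to the origin, had 9.07 (deleted) and 8.20 (control), with the strongest summit upstream of the start in both (687 and 762 bases). Cdc6, the ATPase that acts with the origin complex in loading, had 1 peak in each list, of 4.53 and 3.63, with the summit 28 and 15 bases before the start. Gmnn, which encodes the Cdt1 inhibitor geminin, had 7.56 and 4.84. Of these only Cdt1 was above the list median in both lists.

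Among the MCM subunits, which form the ring-shaped helicase, heights ranged from among the highest to among the lowest of the set. Mcm5 (chr8:75109468-75128439), whose promoter is shown above, reached 10.9 and 10.5 with summits 311 and 300 bases before the start. Mcm7 reached 9.23 (deleted) and 11.5 (control). Mcm4 reached 10.7 and 8.07.
Lower values were found at the other subunits. Mcm2 had 7.89 and 6.71, and Mcm6 had 5.71 and 6.46. Mcm3 (chr1:20802966-20820312) had only 3.69 and 3.84. At its start the deleted list held a peak of 3.53 that overlapped the control one, and its slightly taller deleted peak lay 16573 bases into the gene and was in the deleted list only.

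Genes that activate the helicase had low peaks throughout. None of the 6 exceeded the list median in either list, with a group median of 5.73 and 4.54. Cdc45, which joins MCM and GINS in the active helicase, reached 6.43 and 6.86. Mcm10, an initiation factor needed to start unwinding, reached 4.37 and 4.65.
The 4 GINS subunits spread within that low range. Gins1 had 6.72 and 4.44, and Gins3 had 5.04 and 6.05. Gins2 had 4.37 and 3.83, and in the deleted list its tallest peak lay outside the gene, 1507 bases from the nearer gene end. Gins4 (chr8:23226610-23237668) had 6.88 (deleted) and 3.00 (control), the lowest control value of all 41 genes. Its summit pileup was 40 and 23 tags. The denominator of the fold, taken as the pileup plus 1 divided by the fold, was 5.96 and 8.0, so both parts of the ratio differed. Prim1 had the same pair of denominators, 5.96 and 8.0, with nearly equal pileups of 37 and 36. At the strongest peaks of most members this denominator was 5.96 (deleted) and 4.96 (control). Fold enrichment there was thus close to summit pileup over 1 value per list.

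Polymerase alpha and primase make the RNA-DNA primers, and all 4 of their genes were below the list median in both lists. Prim1, the catalytic primase subunit, had 6.38 and 4.62, and Prim2, its regulatory partner, had 5.88 and 5.45. Pola1 (chrX:93304766-93632387), the catalytic subunit and the only X-linked member, had 3.53 and 3.83 over a gene of 327622 bases, with 2 deleted and 3 control peaks. Its parental copies were not separated in the lists. Pola2, the second subunit of polymerase alpha, had 5.04 and 5.85, and the most peaks of the set, 13 (deleted) and 10 (control), of which 11 and 9 were in the body or flank away from the start.

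The elongating polymerases were below the list median in the deleted list, all 5 of them, and 1 of 5 (Pold2) exceeded it in the control list. Pold1, the catalytic subunit of polymerase delta, had 6.55 and 5.0. Pold2 and Pold3, accessory subunits of the same enzyme, had 6.21 and 7.40 and 5.88 and 6.25, deleted value first. Pole, the catalytic subunit of polymerase epsilon, had 5.71 and 6.86. Pole2, its partner subunit, had 3.86 and 6.05. In the deleted list 3 Pole2 peaks shared that value of 3.86, including 1 that lay 145 bases after the start and overlapped the control peak 154 bases after it.

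The clamp and its loader covered a wide range. Pcna, the sliding clamp, reached 7.56 (deleted) and 9.40 (control). Rfc4, a loader subunit, reached 12.9 and 10.9 with pileups of 76 and 53 tags, and the summit lay 194 and 213 bases before the start. Rfc1, the large loader subunit, reached 9.74 and 6.46.
The remaining loader subunits had no value above 7. Rfc2 had 5.21 and 6.66, and Rfc5 had 6.88 and 5.25. Rfc3 had 4.67 and 5.04 from narrow peaks, 178 and 186 bases wide.

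The single-strand binding protein RPA coats unwound DNA, and its genes had 6.20 and 7.26 (Rpa1), 5.54 and 7.06 (Rpa2) and 7.22 and 7.26 (Rpa3), with the larger value in the control list each time. The genes that finish lagging-strand fragments were among the tallest. Fen1, the flap nuclease, reached 11.6 and 10.5, and Lig1 (chr7:13277175-13311426), the ligase that seals nicks, reached 11.2 and 11.9. Since fold enrichment is not scaled between lists, which list held the larger value for a gene describes these libraries only.

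The acetylated sites of these genes were largely the same ones in both cultures. The overlap of strongest peaks was not counted over all protein-coding genes, so it is not shown to be particular to the members. The strongest peaks of the lists overlapped in 35 of 41 genes, with a median distance of 31 bases between summits over all 41, at most 50 bases in 26 genes and at most 100 in 31. Where peaks of a gene tied for the highest value (Prim2 and Pole2 in the deleted list, Rfc1 in the control list), each of them was allowed to match. The 6 without overlap were Orc1, Orc3, Mcm3, Gins2, Pola1 and Pola2. Strongest peaks lay within 1 kb of a start in 41 genes of the control list and 39 of the deleted list, the exceptions being Mcm3 and Gins2. With the first of tied peaks taken, strongest peaks had a median width of 623 bases (deleted) and 537 (control), against 311 and 313 over all peaks.

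Summits tended to lie just past the start. Among the 33 genes with a known strand, the strongest start peak had its summit downstream in 23 of the deleted and 25 of the control list, which was 69.7% and 75.8%, against 76.1% and 75.3% of all genes measured in the same way. The median position was 145 and 154 bases downstream, against 203 and 216 over all genes. Genes with the strongest summit upstream in both lists included Cdt1, Mcm5 and Rfc4, as given above, and Cdc45 (482 and 508 bases). The start base itself lay inside a peak in only 9 and 8 of the 33 genes, and 18 and 16 had summits on both sides of it.

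**Figure D3:**
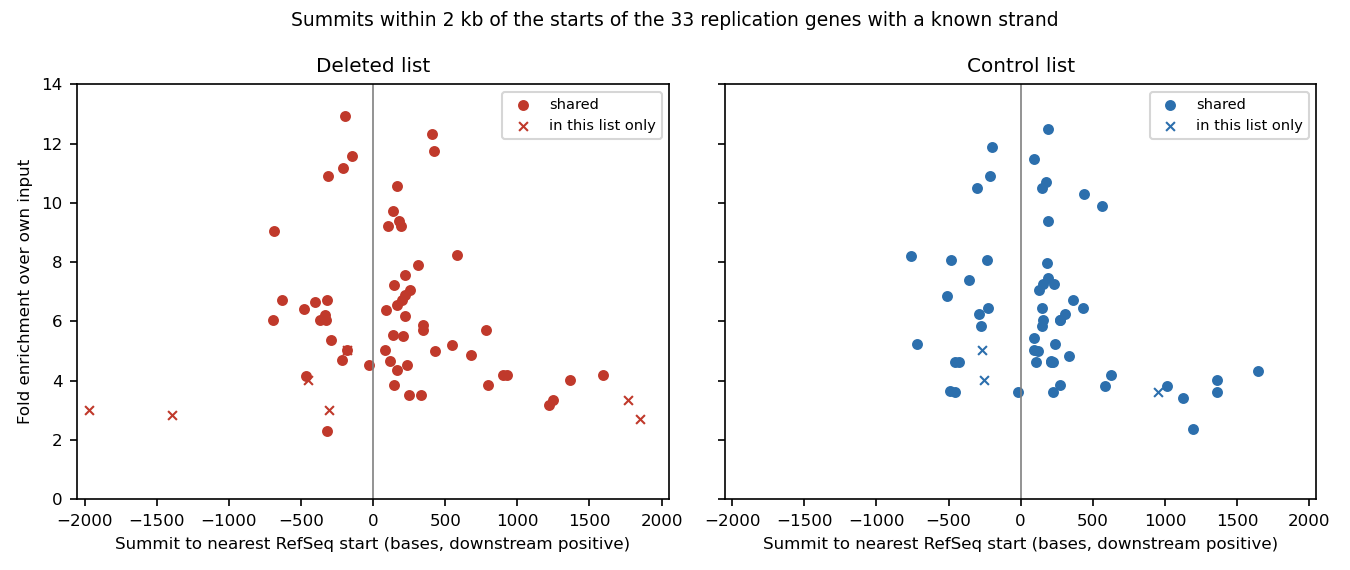
Distance of each peak summit from the nearest RefSeq start (bases, downstream positive) against its fold enrichment, for the 33 genes with a known strand, in the deleted and control lists, with peaks in 1 list only marked apart from shared ones. The tallest summits lay on both sides of the start, and the peaks in 1 list only did not exceed 5.04.

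The numbers of peaks differed between the lists about as they did over all protein-coding genes. The members held 141 peaks (deleted) and 100 (control), a ratio of 1.41, against 1.40 for peaks of all protein-coding genes and 1.44 for all peaks. Within 1 kb of a start the counts were 75 and 69, a ratio of 1.09. With the deleted list shortened to the length of the control list by its q values, the members held 109 and 100 peaks. In the full lists, more peaks were counted in the deleted list for 23 genes, as many in both for 14, and more in the control list for 4 (Orc5, Orc6, Cdt1 and Pola1). Their extended bodies had 64.8 kb covered by deleted and 45.7 kb by control peaks.

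**Figure D4:**
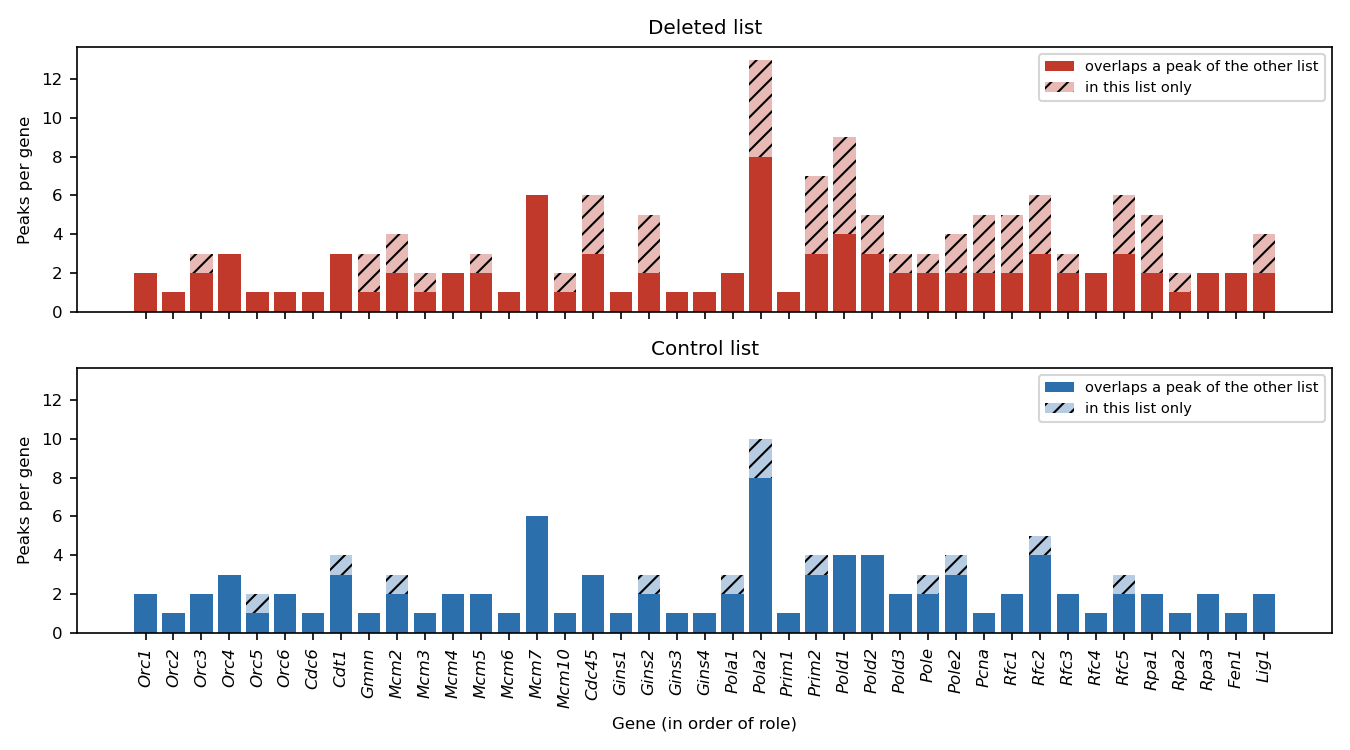
Number of peaks per gene in each list for the 41 replication genes in order of role, split into peaks that overlap a peak of the other list (solid) and peaks in that list only (hatched). Pola2 had the most in both lists, 13 and 10.

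A peak was called list-only when it had no base in common with the opposite list. In the deleted list 53 of 141 member peaks were list-only (37.6%, exact Clopper-Pearson 95% interval 29.6 to 46.1), against 48.1% of the peaks of all protein-coding genes. In the control list the count was 12 of 100 (12%, 6.36 to 20), against 22.4%. Both shares over all protein-coding genes lay above these intervals, and 75 of the 141 deleted member peaks were near starts, against 20015 of 67612 for all protein-coding genes. Near starts meant within 1 kb of the gene's own start for members. For all protein-coding genes it meant within 1 kb of any protein-coding start. The intervals cover counting error only, and neighbouring peaks of a gene are not independent.
The shares differed by place. Near starts 7 of 75 deleted peaks (9.33%, 3.84 to 18.3) and 4 of 69 control peaks (5.80%, 1.60 to 14.2) were list-only, against 21.5% and 5.73% for all protein-coding genes. Elsewhere in the body or flank the counts were 46 of 66 (69.7%, 57.1 to 80.4) and 8 of 31 (25.8%, 11.9 to 44.6), against 59.3% and 32.0%. The share over all protein-coding genes lay outside the members' interval only for deleted peaks near starts, where it was higher. Deleted-list-only peaks of Pcna near the Tmem230 start and of Pold1 near the Spib start counted as elsewhere for the members. By the rule for all protein-coding genes they would be near starts, so that contrast does not compare like with like. In both lists the members' share was higher away from starts than near them, as it was for all protein-coding genes.

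**Figure D5:**
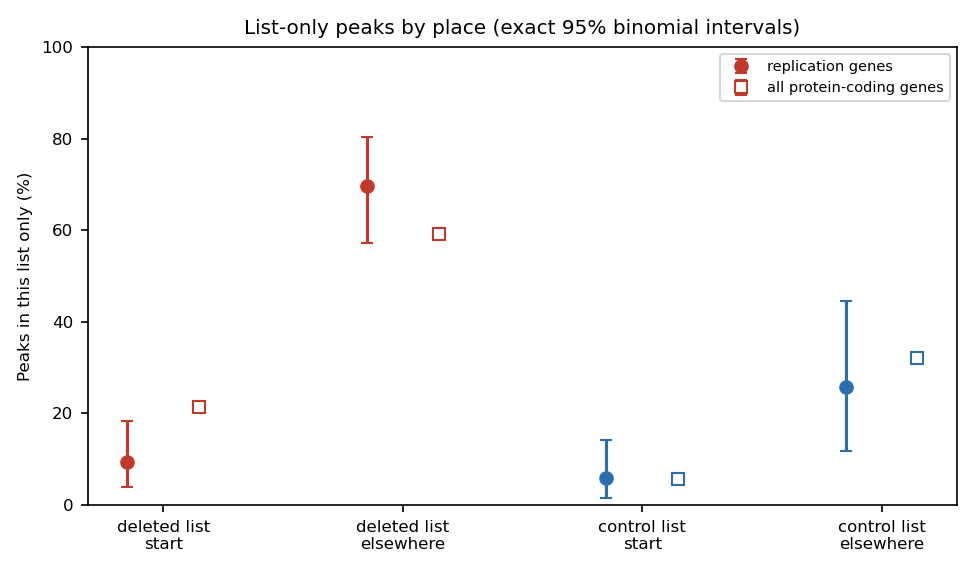
Share of peaks (%) found in 1 list only, by place and list, for the replication genes and for all protein-coding genes, with exact 95% binomial intervals that cover counting error only. In the deleted list the replication genes went from 9.33% near starts to 69.7% elsewhere. Starts were each gene's own for the replication genes and any protein-coding start for all protein-coding genes.

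The list-only peaks were weak. Those of the deleted list away from starts had fold enrichments of 2.29 to 4.70, with a median of 3.19, and those of the control list 3.03 to 4.04, with a median of 3.43. Shared peaks away from starts were nearly as weak, with medians of 3.61 (deleted) and 3.63 (control). At starts the list-only peaks had medians of 3.86 and 3.93, and the shared peaks 5.96 and 5.85. A count added after seeing the data asked for a fold enrichment of at least 5 and no overlap with any peak of the opposite list. It left 1 peak in each list, namely a deleted peak at Pola2 (chr19:5964298-5965137, 5.04, summit 180 bases before the start) and a control peak at Orc5 (chr5:22550487-22550771, 5.04, summit 268 bases before the start).

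Deleted-list-only peaks fell in 23 genes and control-list-only peaks in 11. How many of all protein-coding genes held such peaks was not counted. Of the peaks at all protein-coding genes 48.1% (deleted) and 22.4% (control) were list-only. In 15 genes the deleted list had 2 or more of them, namely 5 each in Pola2 and Pold1, 4 in Prim2, 3 each in Cdc45, Gins2, Pcna, Rfc1, Rfc2, Rfc5 and Rpa1, and 2 each in Gmnn, Mcm2, Pold2, Pole2 and Lig1. In the control list only Pola2 had 2. Pold1 held 9 deleted and 4 control peaks, and all 4 of the latter were shared. Pcna had 1 control peak and 5 deleted peaks. The control peak, 953 bases wide, overlapped both deleted start peaks of the gene. Of its deleted-list-only peaks, those in the flank lay near the Tmem230 start and the body peak had a fold enrichment of 3.33. The strongest Pcna peak had the smaller fold enrichment in the deleted list, 7.56 against 9.40. In the comparison at equal list length, the deleted-list-only peaks of the members numbered 28 and the control-list-only peaks 17. All protein-coding genes were not counted at that length.

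Some start peaks also lie at a neighbour. Another protein-coding gene started within 1 kb of 9 of the 33 members with known strand (27.3%), against 10.1% of all protein-coding genes with a promoter entry. These were Orc1 with Prpf38a, Orc3 with Rars2, Orc4 with Mbd5, Mcm7 with Ap4m1, Cdc45 with Ufd1, Rpa1 with Smyd4, Rpa3 with Umad1, Fen1 with Tmem258 and Lig1 with Zswim9. Their median highest fold enrichment was 9.23 (deleted) and 8.07 (control), against 6.30 and 6.36 for the other 24, and the same comparison over all protein-coding genes gave 8.90 and 8.27 against 6.88 and 6.80. Which gene of such a pair the mark belongs to cannot be told apart.
With peaks counted only where no other gene's extended body overlapped them, 26 members kept a peak in both lists, 4 kept one in deleted cells alone (Orc3, Cdc45, Rpa1 and Lig1) and 11 in neither (Orc1, Orc2, Orc4, Orc5, Orc6, Mcm4, Mcm7, Gins4, Pcna, Rpa3 and Fen1). Under the same count 41.5% of all protein-coding genes had a peak in each list, 7.66% in deleted cells alone, 1.66% in the control list alone and 49.2% in neither. None of the 6 origin recognition genes kept a peak in both lists.

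E2F matches were frequent in these promoters. In windows from 250 bases before to 50 after each listed start, 15 of 41 windows of the members held at least 1 (36.6%), against 2.88% of protein-coding windows and 2.26% of all windows. By gene the share was 45.5% (15 of 33), against 3.33% of all protein-coding genes, 5.18% of those with a start peak in both lists and 25.7% (9 of 35) of the other replication genes described below by their peaks. The 15 were Orc1, Orc3, Cdc6, Cdt1, Mcm3, Mcm5, Mcm6, Mcm7, Gins3, Pola1, Pold1, Pold3, Pole2, Rfc3 and Lig1. CCAAT boxes were in 56.1% of member windows against 38.5% of protein-coding ones, the GC box GGGCGG in 70.7% against 46.7%, and the cell-cycle homology motif TTTGAA in 12.2% against 15.6%, each on either strand and with matches to different motifs allowed to overlap. Among windows of protein-coding genes with a start peak in both lists the shares were 4.25% for E2F, 38.2% for CCAAT, 63.5% for the GC box and 11.6% for TTTGAA. Median G and C content was 61.3% in member windows, 56.7% in all protein-coding windows and 61.0% in those acetylated in both lists.
Genes with an E2F match did not have the taller peaks. Their median highest fold enrichment was 5.88 (deleted) and 6.05 (control) (n = 15), against 7.39 and 7.26 for the 18 without a match. The ranges overlapped, from 3.53 to 11.2 and from 4.37 to 12.9 in the deleted list.

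Other genes of the pathway were acetylated as widely. Of 44 further replication genes, among them helicase relatives, fork protection factors, kinases and topoisomerases, all 44 had a peak in both lists. At the start 42 had a peak in both, and Timeless, a fork protection factor, and Ccna2, the S-phase cyclin, had a start peak in the deleted list only. Over all protein-coding genes the start shares were 50.4% in both lists and 5.50% in the deleted list only. Their median highest fold enrichment was 7.89 and 8.07, above the members' 6.67 and 6.66. The tallest in the control list were Top1, topoisomerase I, with 14.8 (deleted) and 19.8 (control), Rnaseh2c with 11.2 and 14.9, and Mtbp with 9.0 and 11.5.
Of 18 genes of the E2F family and the DREAM complex, known regulators of such promoters, 17 had a peak in both lists. The other, E2f8, a repressor of the family, had 2 peaks in the deleted list, of at most 5.88, and none in the control list. The shares over all protein-coding genes were 59.0% in both lists and 6.00% in the deleted list only. Tfdp2, a dimerization partner of E2F, had a start peak in the deleted list only, as 5.50% of all protein-coding genes did. The tallest were Rbl1, which encodes p107, with 20.1 and 18.4, E2f3 with 14.8 and 11.9, and Lin9 with 10.1 and 10.3. The group's medians were 7.64 and 7.06.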

How the data were processed

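H3K27ac ChIP-seq of 4 libraries was used, 1 ChIP and 1 input for each of 2 groups. The submitters' processing notes name bcl2fastq, Bowtie 0.12.9 and the build mm10. Per the file headers, MACS2 2.1.0.20140616 was run by the authors on each ChIP with its matching input, keeping 1 tag at a position and peaks up to a q-value of 0.05. Deposited values of a peak are its fold enrichment (a ratio to local background), its summit pileup signal, −log10 q and −log10 p. Tags had 80 bases. ChIP libraries kept 54194233 and 42277672 tags and inputs 77101643 and 80601280, per the file headers.

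Peaks on chromosomes 1 to 19 and X were overlapped with gene bodies of RefSeq GRCm38.p6 in Python 3.11.15 (pandas 2.3.3, numpy 2.4.6, scipy 1.17.1 for Clopper-Pearson intervals). Overlaps were tested on simulated data. That assembly has the chromosomes of mm10. Its promoter and miRNA tables supplied sequences and strand. The genes, roles, motifs and lists were chosen with earlier results of these data known. Full values were to be given for the 10 highest and 5 lowest members of the control list, those with 2 or more list-only peaks and those sharing a start with a neighbour. Promoters shown were restricted to single starts after the values were seen, since upstream bases of an inner start can lie in another transcript. Where peaks of a gene tied for the highest fold, the first by position gave its width and place unless stated. Percentiles are ranks among protein-coding genes with a peak in the same list. Alternatives were other gene extensions, start windows, peak thresholds, list lengths, overlap rules and peaks at no other gene.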

Additional observations from a re-analysis of the deposited data

How the results depend on the processing

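No paired analysis was possible because each group had 1 ChIP library, and for the same reason no library could be left out. All 41 members kept a peak in both lists with extensions of 0 or 5 kb, and a start peak in both with windows of 500 bases or 2 kb. Without extension the median highest fold was 6.43 (deleted) and 6.05 (control), and with 5 kb it was 6.88 and 6.86. At −log10 q of at least 5 the lists held 87 and 66 member peaks, 27 and 7 of them list-only, with medians of 6.69 and 6.86. Cdc6, Gins2 and Gins4 (3 members) were then in the deleted list only and Pola1 (1) in neither, and for start peaks 3 were deleted only, 1 (Mcm3) control only and 1 in neither. At a fold of at least 5 there were 49 and 41 peaks, 13 and 5 of them list-only, with medians of 7.05 and 7.26, and 6 members were deleted only, 2 control only and 5 in neither, for bodies and starts alike. Pold1 counted as deleted only with a control value of 4.99999. At both thresholds list-only was judged against the opposite list cut at the same threshold. A peak that overlapped only a weaker peak of that list therefore counted as list-only. Lists of equal length left 28 deleted-list-only peaks. Counting peaks within 500 bases as shared left 7 in the control list. Peaks at no other gene left 26 members in both lists, 4 with deleted peaks alone and 11 in neither. The count added after seeing the data used the full opposite list and gave 1 and 1. These changes follow from counting fewer, more or other peaks. The part of depth in the list-only counts was not tested.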

Other observations

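Mcm7 hosts 3 miRNA genes on its own strand, which are known as a cluster that acts on cell-cycle regulators. The mature arms below are from RefSeq (GRCm38.p6), with the seed (bases 2 to 8) in capitals.
miR-106b-5p: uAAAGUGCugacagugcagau
miR-93-5p: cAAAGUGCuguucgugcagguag
miR-25-3p: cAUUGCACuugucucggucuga
The first pair share the seed AAAGUGC, and miR-25-3p has AUUGCAC. Mcm7 had 6 peaks in each list, all shared between them. Deleted-list peaks overlapped the hairpins of Mir25 (chr5:138165321-138165404) and Mir106b (chr5:138165737-138165818) and came within 6 bases of Mir93 (chr5:138165523-138165610). In the control list the nearest peaks were 394, 10 and 218 bases away in the same order. Pold1 hosts Mir7053, with the nearest peak 921 bases away for deleted and 1046 for control cells.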
